A study of Mus musculus with 9 samples.

Results

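The 34 genes described here encode channels that carry the electrical signal of the heart muscle cell and proteins that store, release and remove its calcium. They were chosen as a named group by function: 2 genes of the sodium current, 2 of delayed-rectifier potassium channels, 4 of inward rectifiers, 4 of the transient outward and ultrarapid potassium currents, 2 of other potassium channels, 2 of pacemaker channels, 7 of calcium entry, 6 of calcium release, 3 of calcium uptake and extrusion, 1 kinase and 1 gap junction gene. All 34 were found among the 32285 genes of the count matrices. Their unique molecular identifiers (UMIs, each a counted RNA molecule) were summed over 9421 cardiomyocyte-like nuclei, out of 41979 nuclei kept, and levels are given as counts per 1000000 UMIs of those nuclei (CPM). Of the 34 genes, 33 had enough counts to be tested, among 13955 genes tested in all. The exception was Kcna5.

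Nuclear RNA was sequenced from hearts of male wild-type mice aged 9 to 10 weeks, in 3 groups of 3 libraries. Mice of the NS-Sham group had the chest opened without a coronary occlusion and received normal saline. Mice of the NS-I/R group received saline and went through ischemia-reperfusion (I/R), in which the left anterior descending coronary artery was closed for 45 min and flow was then restored for 24 h. Mice of the Enpa-I/R group went through the same I/R and received enpatoran, which blocks TLR7, a receptor for RNA, at 5 mg/kg in each intraperitoneal injection. It was given 2 times, the first 1 h before ischemia. For the second, one label gives 2 h later and another the end of ischemia. A sham group given enpatoran was not analysed here. The labels do not say whether each library came from 1 heart, so p-values measure the spread between these libraries.

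In a ventricular muscle cell, sodium channels start the action potential, the transient outward potassium current shapes its early repolarization, L-type calcium channels sustain it, and delayed and inward rectifiers end it and hold the resting potential. Calcium that enters through L-type channels opens ryanodine receptors of the sarcoplasmic reticulum, the released calcium drives contraction, and the reticulum pump and the sodium-calcium exchanger then clear it. In rodent ventricle the transient outward current is the main repolarizing current, and its loss is a known feature of injured and failing myocardium.

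Libraries held 19651794 to 38970152 UMIs, and any pair shared 5 to 20 cell barcodes. Cardiomyocyte-like nuclei numbered 626 to 1451 per library with median depths of 6414 to 10482.5 UMIs, which overlapped between groups. Their median mitochondrial share was 0.77% and 0.73% in NS-Sham replicates 1 and 3 and 0.24 to 0.39% in the other libraries. Before filtering, 23.4% and 23.7% of barcodes in those 2 libraries exceeded 5% mitochondrial UMIs, against 11.8 to 17.8% in the others. The summed level of 12 cardiomyocyte markers in the cardiomyocyte-like nuclei was 53956 to 54294 CPM in the sham group, 27530 to 38918 CPM in NS-I/R and 41957 to 44510 CPM in Enpa-I/R. The nuclei were named by these same markers, so the sums do not test the label, and the marker level itself moved with the groups. Neutrophil markers in these nuclei summed to 0.713 to 2.81, 28.0 to 82.7 and 17.5 to 33.3 CPM in the same order, smooth muscle markers to 10.2 to 21.1, 69.5 to 134 and 38.3 to 50.6 CPM, and pericyte markers to 350.2 to 368, 108 to 179 and 178 to 247 CPM. Abcc9, 1 of the 9 pericyte markers, by itself averaged 306, 78.0 and 144 CPM in these nuclei. The part of all these markers in the results below was not tested. NS-I/R replicate 3 stood apart from the other NS-I/R libraries: nuclei of the cluster led by Xirp2, Flnc and Ankrd1 were 37.3% of its cardiomyocyte-like nuclei against 53.3% and 56.6%. The counts of members called in cardiomyocyte-like nuclei, and the values of some members there, are given with and without it.

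Against sham, 20 of the 33 tested genes differed after I/R with saline (edgeR quasi-likelihood test, adjusted p under 0.05 over all genes), 16 lower and 4 higher. That is 60.6% of the tested members, beside 45.3% of all genes tested (23.7% higher and 21.6% lower). The median log2 fold change of the 33 was -0.52, against 0.01 over all genes. The median size of the change without its sign was 0.56 for the members and 0.56 for all genes. The 16 lower genes held the transient outward genes Kcnip2 and Kcnd2, 4 of 4 inward rectifiers and the phospholamban gene Pln. The 4 higher ones were Slc8a1, Casq2, Camk2d and Rrad. The groups did not overlap for 23 members, beside 53% of all genes. Lower and higher counts were 13 and 1 without NS-Sham replicate 1, 10 and 1 without NS-Sham replicate 2, 11 and 2 without NS-Sham replicate 3, and 14 and 2 and 12 and 1 without NS-I/R replicates 1 and 2. Without Enpa-I/R replicate 1 they were 15 and 2. Over all genes, 6322 were called in the full fit and 5345, 5250 and 5092 without NS-Sham replicates 1, 2 and 3. Without NS-I/R replicates 1 and 2 the calls over all genes were 4863 and 4797, and without Enpa-I/R replicate 1 they were 6007.

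Between the I/R groups, 10 members were higher with enpatoran than with saline and 0 were lower, 30.3% of those tested beside 19% of all genes (7.64% higher, 11.4% lower). At an unadjusted p under 0.05 edgeR gave 13 higher and 3 lower, and the share of all genes at that limit was not counted. With DESeq2's Wald test the adjusted counts were 12 and 0, where 3279 of all 26054 genes fitted were called, 1422 of them higher. A fit on the 6 I/R libraries alone gave 4 and 0. In that fit of 6 libraries 514 of all 13547 genes tested were called, 172 of them higher. The 10 were Fgf13, Kcnq1, Kcnj3, Kcnj11, Kcnd2, Kcnip2, Kcnn2, Cacna1c, Cacnb2 and Pln. The median log2 fold change of the 33 was 0.44, and that of all genes was 0.00017. The groups did not overlap for 15 members, beside 35.6% of all genes. The count of higher members was 2 to 7 when any 1 library other than NS-I/R replicate 3 was left out: 7 without each sham library in turn, 3 and 4 without NS-I/R replicates 1 and 2, and 4, 5 and 2 without Enpa-I/R replicates 1, 2 and 3. Among all 14283 to 14546 genes tested in these fits, 704, 809 and 627 were higher without NS-Sham replicates 1, 2 and 3. They numbered 81 and 100 without NS-I/R replicates 1 and 2, and 142, 236 and 30 without Enpa-I/R replicates 1, 2 and 3. Without NS-I/R replicate 3 the count of higher members was 15, with 3 lower, where 21.2% of all genes were higher and 22.7% lower (43.9% in all).

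Enpatoran-treated hearts after I/R still differed from sham in 13 members, 11 lower and 2 higher, 39.4% of those tested beside 18.3% of all genes (9.16% higher, 9.1% lower). The higher ones were Slc8a1 and Rrad. The lower ones were Scn4b, Fgf13, Kcnh2, Kcnj3, Kcnd2, Kcnip2, Kcnn2, Hcn2, Hcn4, Cacna1g and Itpr1. The median log2 fold change was -0.40, against 0.01 over all genes, and 21 members had no overlap between the groups, beside 44.9% of all genes. Without Enpa-I/R replicate 1 the counts were 5 lower and 1 higher, without NS-Sham replicate 3 they were 6 and 2, and without NS-I/R replicate 3 they were 16 and 5. Of all genes, 1476 of 14483 were called in the first of these fits and 1434 of 14546 in the second. In the third, 14.7% of all genes were lower and 14.9% higher (29.7% in all). The 3 comparisons share libraries pairwise, so their values for a gene are not independent and are set side by side only.

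**Figure D1:**
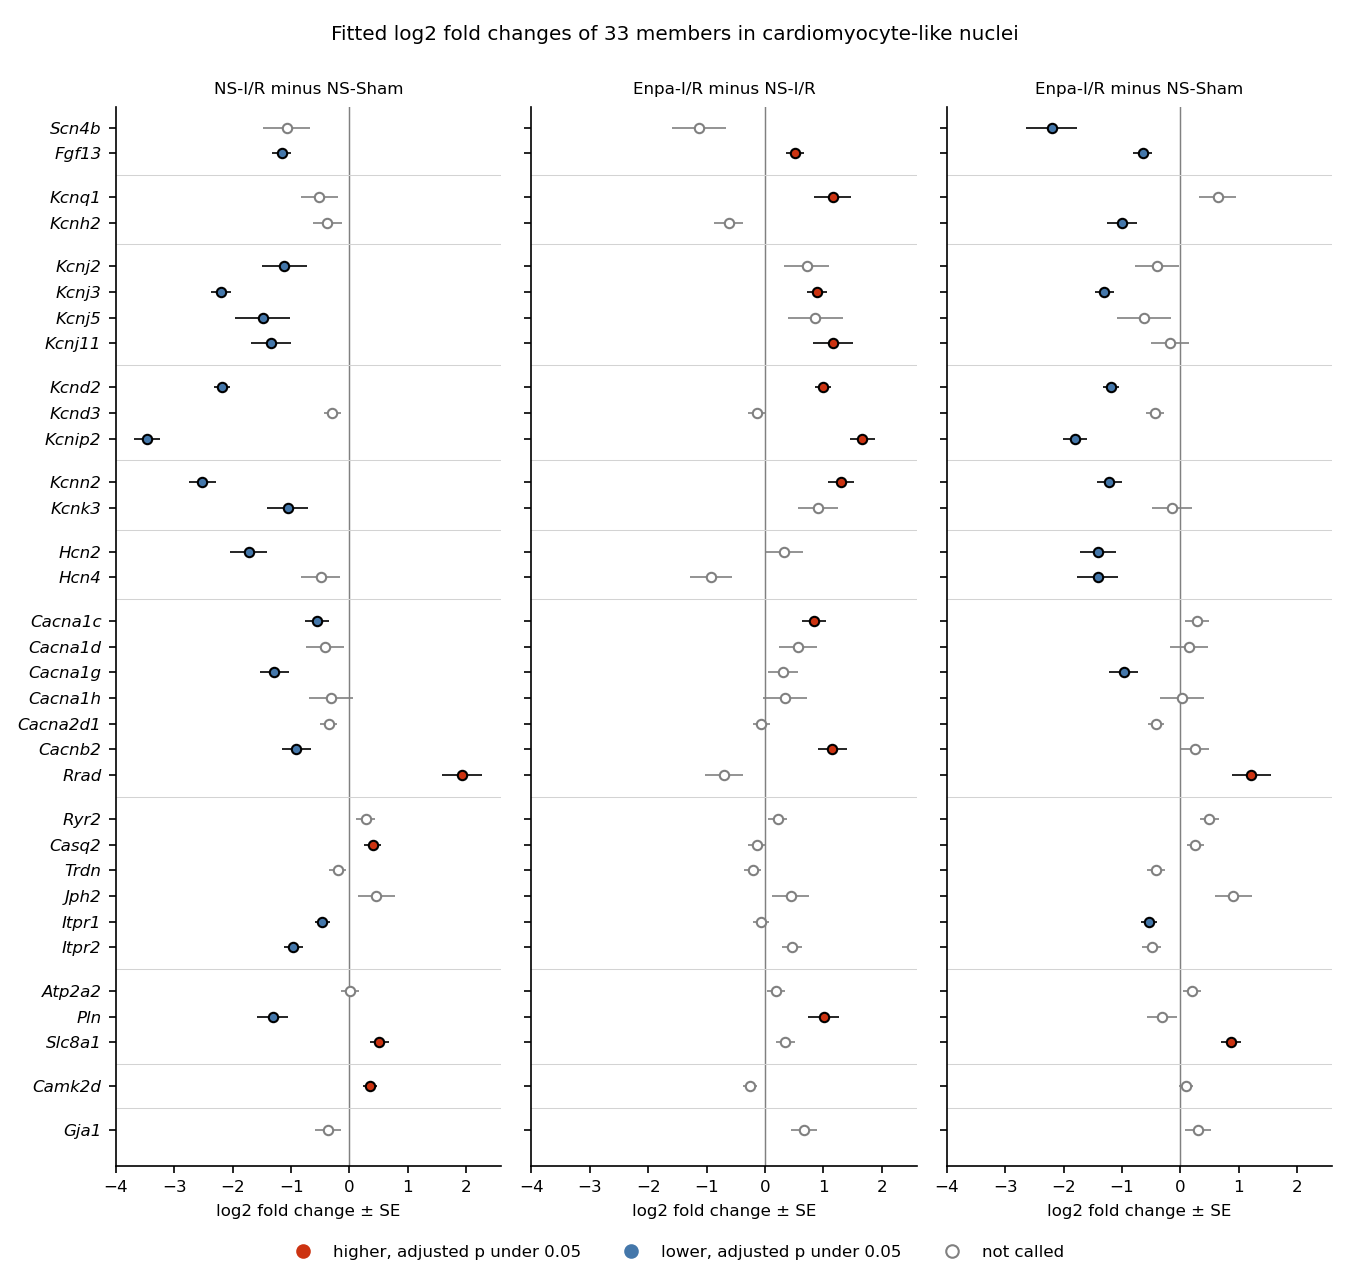
Log2 fold changes (x axis, ± SE from edgeR) of the 33 tested genes (y axis, grouped by role) in 3 comparisons of 3 against 3 libraries; filled points passed an adjusted p of 0.05 and open points did not. In the left panel 16 genes are filled on the lower side and 4 on the higher side, in the middle panel 10 on the higher side and 0 on the lower, and in the right panel 11 and 2.

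Kcnip2 and Kcnd2, both of the fast transient outward current, were among the members that moved most. Kcnip2 encodes KChIP2, the accessory subunit that brings Kv4 channels to the surface. Its level was 157, 163 and 161 CPM in the NS-Sham libraries, 12.7, 10.6 and 20.3 CPM in NS-I/R and 38.8, 52.3 and 43.8 CPM in Enpa-I/R. The 3 groups did not overlap: every NS-I/R library was below every Enpa-I/R library, and those were below every sham library. The level was 11.1-fold lower after I/R with saline than in sham (log2 fold change -3.47 ± 0.22 (SE), edgeR adjusted p = 6.45e-06). It was 3.18-fold higher with enpatoran than with saline (1.67 ± 0.21, edgeR adjusted p = 0.0059) and 3.50-fold lower with enpatoran than in sham (-1.81 ± 0.21, edgeR adjusted p = 0.000459). In UMIs per nucleus this was 1.37 to 1.89 in sham, 0.120 to 0.194 after I/R with saline and 0.391 to 0.674 after I/R with enpatoran. In sums over nuclei, fewer nuclei with a transcript and less transcript per nucleus cannot be told apart.

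Kcnd2 encodes Kv4.2, a pore-forming subunit of that current. The sham libraries had 3184, 3437 and 3624 CPM, the NS-I/R libraries 678, 783 and 804 CPM and the Enpa-I/R libraries 1351, 1430 and 1606 CPM. The order of the groups was that of Kcnip2, again with no overlap. Kcnd2 fell 4.54-fold after I/R with saline (-2.18 ± 0.14 on the log2 scale, edgeR adjusted p = 6.8e-06) and was 1.99-fold higher with enpatoran than with saline (1.00 ± 0.14, edgeR adjusted p = 0.00787). Kcnd2 and Kcnip2 were the 2 members whose higher level with enpatoran passed the test in all 19 planned settings, with adjusted p up to 0.0454 and 0.04. In a fit added later within 1 cluster of these nuclei, given below, neither passed (edgeR adjusted p = 0.077 and 0.172). The other Kv4 gene, Kcnd3, did not pass in any comparison. It had 542, 569 and 509 CPM in sham, 516, 438 and 370.0 CPM in NS-I/R and 394, 366 and 414 CPM in Enpa-I/R, and its log2 fold changes were -0.29 ± 0.15, -0.14 ± 0.15 and -0.43 ± 0.15 (edgeR adjusted p = 0.141, 0.537 and 0.0775 for NS-I/R against sham, Enpa-I/R against NS-I/R and Enpa-I/R against sham, the order used throughout). The difference between Kcnd2 and Kcnd3 was not tested. Kcna5, the gene of the ultrarapid channel Kv1.5, gave 37 UMIs in all 9421 cardiomyocyte-like nuclei, 0.134 to 0.869 CPM per library, too few for a test there.

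**Figure D2:**
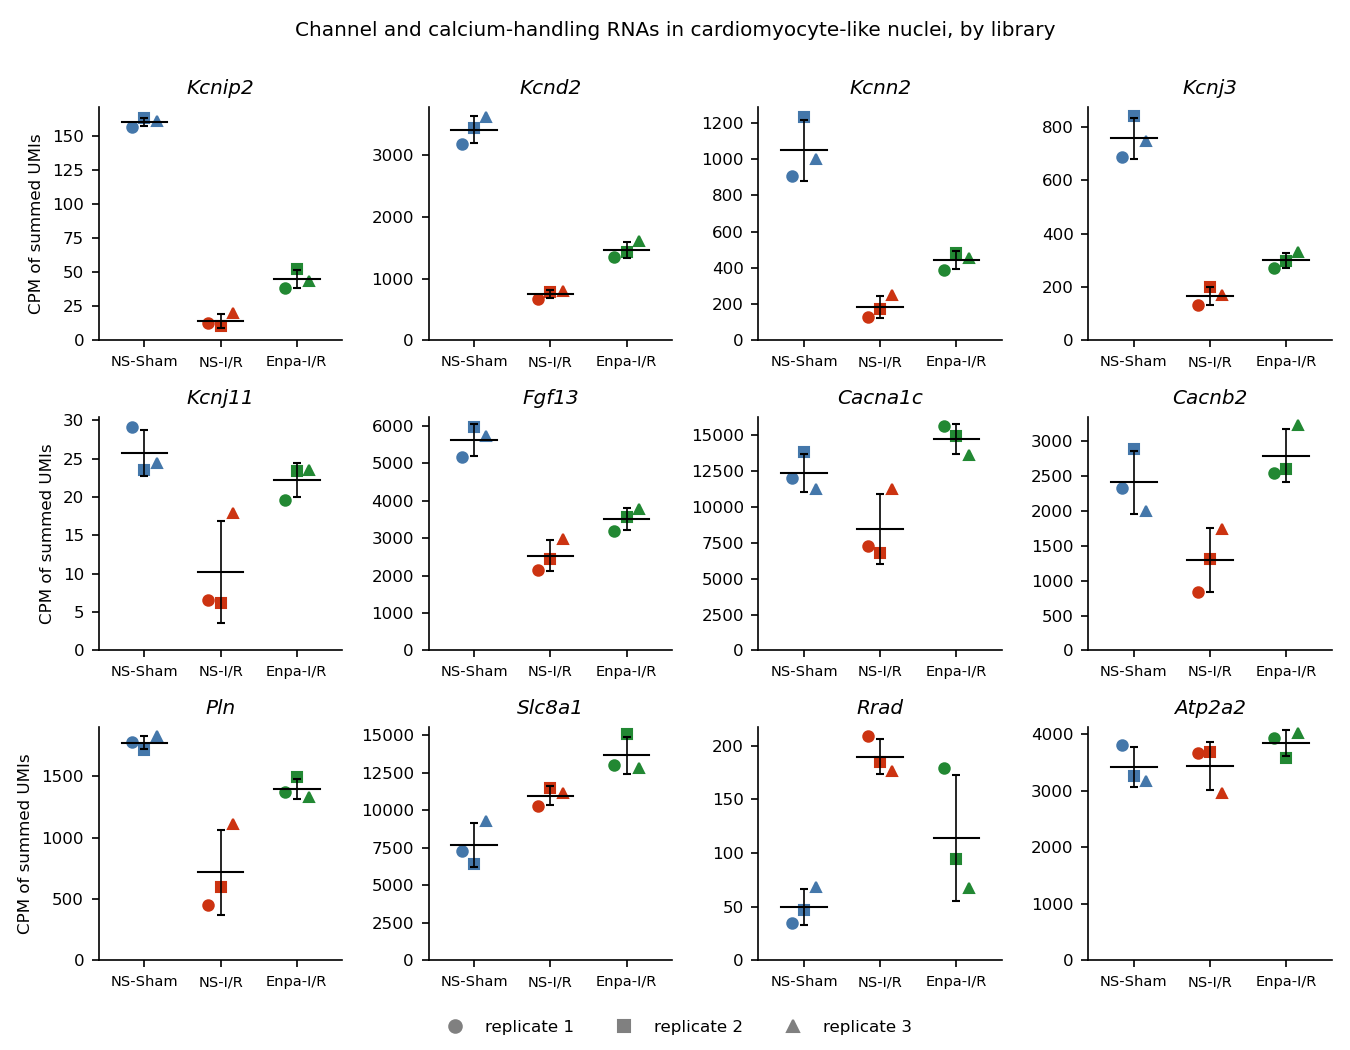
CPM of summed UMIs (y axes, linear, from 0) for 12 of the genes in the cardiomyocyte-like nuclei of each library (points, by replicate), with the mean (line) and SD (bar) of each group of 3. Kcnip2, Kcnd2, Kcnn2, Kcnj3 and Fgf13 fall into 3 separate levels with NS-I/R lowest, Slc8a1 and Rrad have their lowest means in sham, the Atp2a2 points of all groups lie between 2955 and 4019 CPM, and NS-I/R replicate 3 (triangle) sits above the other NS-I/R points for Kcnj11, Cacna1c and Pln.

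Promoter windows of 250 bases before the annotated start come from RefSeq's GRCm38.p6 annotation, which matched 24 of the 34 genes in 32 windows. Shown, as examples, are the windows of 4 genes that fell after I/R with saline, Kcnip2 at chr19:45816064-45816313 on the minus strand, Kcnd2 at chr6:21215096-21215345, Kcnj3 at chr2:55435720-55435969 and Pln at chr10:53337436-53337685, the last 3 on the plus strand. Each is written 5′ to 3′ in the direction of its gene. Capitals mark the motif matches found: GC boxes in Kcnip2 and Kcnd2, and a TATA motif followed by a GATA motif on the reverse strand in Pln.
Kcnip2: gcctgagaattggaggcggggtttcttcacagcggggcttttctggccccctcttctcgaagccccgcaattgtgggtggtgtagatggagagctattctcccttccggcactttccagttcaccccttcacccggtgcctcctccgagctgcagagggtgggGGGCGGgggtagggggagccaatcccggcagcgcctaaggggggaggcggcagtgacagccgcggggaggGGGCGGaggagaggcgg
Kcnd2: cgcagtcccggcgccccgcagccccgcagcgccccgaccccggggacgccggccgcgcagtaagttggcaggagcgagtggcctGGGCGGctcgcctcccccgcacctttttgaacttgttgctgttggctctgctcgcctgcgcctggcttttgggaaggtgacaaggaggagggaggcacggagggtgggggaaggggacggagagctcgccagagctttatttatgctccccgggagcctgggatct
Kcnj3: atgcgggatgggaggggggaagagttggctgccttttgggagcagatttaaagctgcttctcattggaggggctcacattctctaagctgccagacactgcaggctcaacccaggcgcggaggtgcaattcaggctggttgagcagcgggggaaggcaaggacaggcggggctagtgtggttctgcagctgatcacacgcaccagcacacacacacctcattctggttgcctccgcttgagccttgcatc
Pln: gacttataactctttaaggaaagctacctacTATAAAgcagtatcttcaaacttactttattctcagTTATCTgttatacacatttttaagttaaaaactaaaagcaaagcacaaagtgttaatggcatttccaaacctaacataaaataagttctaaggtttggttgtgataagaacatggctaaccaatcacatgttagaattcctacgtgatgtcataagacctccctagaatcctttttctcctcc
7 motifs were searched on both strands. The GC box (GGGCGG) was in 17 of the 32 windows, of 15 members, and in 32.7% of all 32851 windows. The Kcnj3 window held none of the 7. The GATA motif (AGATAA) was in 3 member windows (9.99% of all), the TATA motif (TATAAA) in 2 (12.4%), the AP-1 motif (TGANTCA) in 2 (6.75%), the MEF2-type motif (CTANNNNTAG) in 1 (3.20%), the E-box motif (CACGTG) in 1 (6.02%) and the CRE motif (TGACGTCA) in 0 (1.55%). A match describes these letters only.

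All 4 inward rectifiers fell after I/R with saline. Kcnj3 encodes GIRK1, a channel opened by acetylcholine through G proteins. It had 686, 839 and 746 CPM in sham, 132, 198 and 169 CPM in NS-I/R and 273, 296 and 331 CPM in Enpa-I/R, 3 levels with no overlap. Its log2 fold changes were -2.20 ± 0.17, 0.89 ± 0.17 and -1.30 ± 0.17 (edgeR adjusted p = 1.76e-05, 0.0126 and 0.000846). The call against NS-I/R was lost without NS-I/R replicate 1 or Enpa-I/R replicate 3, with adjusted p up to 0.0526.

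Kcnj11 encodes Kir6.2, the pore of the ATP-sensitive potassium channel that opens when energy runs low. Its levels were 29.1, 23.5 and 24.5 CPM, 6.62, 6.23 and 17.9 CPM and 19.6, 23.4 and 23.6 CPM in the 3 groups, so that NS-I/R lay below both others and the other groups overlapped. It fell by 1.34 on the log2 scale after I/R with saline (edgeR adjusted p = 0.00875) and was higher with enpatoran by 1.17 ± 0.34 (edgeR adjusted p = 0.0382). The second call was lost when any 1 library other than NS-I/R replicate 3 was left out (adjusted p up to 0.136), and without that library the values of the 2 comparisons were -2.0 and 1.82.

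Kcnj5 encodes GIRK4, the partner of GIRK1, and Kcnj2 encodes Kir2.1, which sets the resting potential. Kcnj5 had 48.3, 45.4 and 44.2 CPM in sham, 7.26, 8.62 and 34.1 CPM in NS-I/R and 27.6, 38.3 and 22.5 CPM in Enpa-I/R. Kcnj2 had 24.9, 28.0 and 30.2 CPM, 9.15, 8.14 and 21.5 CPM and 25.4, 26.0 and 10.6 CPM. NS-I/R replicate 3 was well above the other NS-I/R libraries for both. Kcnj5 fell by 1.49 and Kcnj2 by 1.12 on the log2 scale after I/R with saline (edgeR adjusted p = 0.0253 and 0.0353), and without NS-I/R replicate 3 the values were -2.53 and -1.68. Both calls were lost when any 1 sham library or NS-I/R replicate 1 or 2 was left out (adjusted p up to 0.0738 and 0.115). With enpatoran neither passed against NS-I/R (edgeR adjusted p = 0.204 and 0.201), except without NS-I/R replicate 3 (1.90 and 1.28, adjusted p = 3.65e-05 and 0.00705).

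Kcnn2, the gene of the calcium-activated channel SK2, was the member with the second largest fall after I/R. It had 909, 1233 and 1004 CPM in sham, 132, 173 and 249 CPM in NS-I/R and 389, 483 and 456 CPM in Enpa-I/R. The groups again formed 3 separate levels. Kcnn2 fell 5.73-fold after I/R with saline (-2.52 ± 0.22, edgeR adjusted p = 3.52e-05) and was 2.47-fold higher with enpatoran than with saline (1.30 ± 0.22, edgeR adjusted p = 0.0106), a call lost without Enpa-I/R replicate 3 (adjusted p = 0.0503). It was 2.32-fold lower with enpatoran than in sham (edgeR adjusted p = 0.00431).

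Kcnk3 encodes TASK-1, a background potassium channel. Its levels were 180.2, 153 and 140.4 CPM in sham, 41.5, 52.3 and 135 CPM in NS-I/R and 142, 154 and 123 CPM in Enpa-I/R. NS-I/R replicate 3 lay close to the lowest sham library. Kcnk3 fell by 1.06 on the log2 scale after I/R with saline (edgeR adjusted p = 0.0288), a call lost when any 1 sham library or NS-I/R replicate 1 or 2 was left out (adjusted p up to 0.0898), and without NS-I/R replicate 3 it fell by 1.75. It did not pass in the other comparisons (0.92 ± 0.35 and -0.15 ± 0.34, edgeR adjusted p = 0.0847 and 0.809), except with enpatoran against saline without NS-I/R replicate 3 (1.60, adjusted p = 1.3e-05).

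The delayed rectifiers moved differently from each other in their values. Kcnq1 encodes the channel of the slow component. It had 249, 259.6 and 333 CPM in sham, 114, 149 and 329.8 CPM in NS-I/R and 393, 507 and 386 CPM in Enpa-I/R. Every Enpa-I/R library was above every other library. The difference from NS-I/R passed (1.16 ± 0.32, edgeR adjusted p = 0.0337) but was lost when any 1 library other than NS-I/R replicate 3 was left out (adjusted p up to 0.12), and those from sham were -0.52 ± 0.32 after saline and 0.64 ± 0.32 after enpatoran (edgeR adjusted p = 0.203 and 0.19). Without NS-I/R replicate 3, Kcnq1 was lower after I/R with saline (-1.09, adjusted p = 0.000245). The antisense transcript Kcnq1ot1 overlaps Kcnq1, was at 145 to 212 CPM in sham, 341 to 398 CPM in NS-I/R and 248 to 273 CPM in Enpa-I/R, and reads of the pair cannot be told apart where strand was not used in counting.

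Kcnh2 encodes the channel of the rapid component, known as ERG. Its levels were 23.6, 32.0 and 41.1 CPM in sham, 23.0, 33.5 and 18.1 CPM in NS-I/R and 14.8, 18.5 and 14.4 CPM in Enpa-I/R. The Enpa-I/R libraries lay below all sham libraries and overlapped NS-I/R. Kcnh2 was lower with enpatoran than in sham on the log2 scale by -1.0 ± 0.25 (edgeR adjusted p = 0.0219). That call was lost without either of NS-Sham replicates 2 and 3, or Enpa-I/R replicate 1 or 3 (adjusted p up to 0.0906). The other comparisons gave -0.38 ± 0.25 and -0.62 ± 0.25 (edgeR adjusted p = 0.239 and 0.106).

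For the sodium current, Fgf13 fell after I/R and Scn4b, at very low counts, was lowest with enpatoran. Fgf13 encodes an intracellular factor that binds the sodium channel and sets its inactivation. It had 5161, 5978 and 5725 CPM in sham, 2161, 2437 and 2982 CPM in NS-I/R and 3192, 3560 and 3782 CPM in Enpa-I/R, with no overlap. It fell 2.24-fold after I/R with saline (-1.16 ± 0.16, edgeR adjusted p = 0.000359), and was higher with enpatoran than with saline by 0.52 ± 0.16 (edgeR adjusted p = 0.0465). The second call was close to the threshold and was lost when any 1 library other than NS-I/R replicate 3 was left out (adjusted p up to 0.166). Against sham it was lower with enpatoran (-0.64 ± 0.16, edgeR adjusted p = 0.0192), which was lost without either of NS-Sham replicates 2 and 3, or Enpa-I/R replicate 1 or 2 (adjusted p up to 0.0853).

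Scn4b, a beta subunit of the sodium channel, gave 267 UMIs in all. Its levels were 5.38, 3.98 and 5.59 CPM in sham, 3.68, 2.08 and 1.26 CPM in NS-I/R and 1.34, 0.495 and 1.13 CPM in Enpa-I/R. Both I/R groups lay below sham in every library. Only the comparison of Enpa-I/R with sham passed, at 4.62-fold lower (-2.21 ± 0.44, edgeR adjusted p = 0.00755), and NS-I/R against sham gave -1.07 ± 0.41 (edgeR adjusted p = 0.0516).

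The pacemaker channels Hcn2 and Hcn4 were measured at a few CPM. Hcn2 had 9.25, 6.0 and 8.44 CPM in sham, 2.21, 2.16 and 2.74 CPM in NS-I/R and 2.34, 4.58 and 1.98 CPM in Enpa-I/R. It was lower than sham in both I/R groups, by 3.31-fold with saline and 2.65-fold with enpatoran (edgeR adjusted p = 0.00163 and 0.0112). The second call was lost without Enpa-I/R replicate 1 (adjusted p = 0.0564). Hcn4 had 4.10, 2.67 and 5.21 CPM, 2.84, 2.79 and 2.74 CPM and 1.00, 2.23 and 1.22 CPM. It was lower with enpatoran than in sham (-1.42 ± 0.35, edgeR adjusted p = 0.0198), a call lost without either of NS-Sham replicates 1 and 3, or Enpa-I/R replicate 1 or 3 (adjusted p up to 0.0888), and did not pass between sham and NS-I/R (-0.49 ± 0.33, edgeR adjusted p = 0.246) or between the I/R groups (-0.93 ± 0.36, edgeR adjusted p = 0.0909). Between the I/R groups Hcn2 gave 0.32 ± 0.33 (edgeR adjusted p = 0.499).

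Among the genes of calcium entry, the L-type subunits Cacna1c and Cacnb2 were lower in NS-I/R than in sham and than with enpatoran. Cacna1c encodes the pore Cav1.2. It had 12010, 13856 and 11252 CPM in sham, 7301, 6789 and 11259 CPM in NS-I/R and 15677, 14955 and 13625 CPM in Enpa-I/R. NS-I/R replicate 3 reached the level of the lowest sham library, the other NS-I/R libraries lay below all of sham, and Enpa-I/R lay above all of NS-I/R. The fall after I/R with saline (-0.56 ± 0.21, edgeR adjusted p = 0.047) was lost when any 1 library other than NS-I/R replicate 3 was left out (adjusted p up to 0.152), and the higher level with enpatoran (0.84 ± 0.21, edgeR adjusted p = 0.0249) when any 1 I/R library other than NS-I/R replicate 3 was (adjusted p up to 0.0994). Without NS-I/R replicate 3 the values were -0.81 and 1.10.

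Cacnb2, the beta subunit that carries Cav1.2 to the surface, had 2334, 2887 and 2002 CPM in sham, 835, 1314 and 1739 CPM in NS-I/R and 2548, 2594 and 3226 CPM in Enpa-I/R. NS-I/R lay below both other groups, which overlapped. It fell by 0.91 on the log2 scale after I/R with saline (edgeR adjusted p = 0.0136) and was higher with enpatoran by 1.16 ± 0.25 (edgeR adjusted p = 0.0183). The first call was lost without NS-Sham replicate 2 (adjusted p = 0.0555) and the second without either of NS-I/R replicates 1 and 2, or Enpa-I/R replicate 1 or 3 (adjusted p up to 0.0643). Cacna2d1, the alpha-2-delta subunit, did not pass, at 1164, 1548 and 1440 CPM in sham, 1090, 1117 and 1046 CPM in NS-I/R and 923, 1063 and 1057 CPM in Enpa-I/R (edgeR adjusted p = 0.0664, 0.796 and 0.0734).

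Rrad encodes a small GTPase that binds the beta subunit and inhibits L-type current. It had 34.6, 47.3 and 68.0 CPM in sham, 209, 185 and 177 CPM in NS-I/R and 179.7, 94.1 and 67.7 CPM in Enpa-I/R. The NS-I/R libraries were above all sham libraries, and the Enpa-I/R libraries were widely spread, replicate 3 being level with the highest sham library. Rrad rose 3.80-fold after I/R with saline (1.92 ± 0.34, edgeR adjusted p = 0.0014). It was 2.33-fold higher with enpatoran than in sham (1.22 ± 0.33, edgeR adjusted p = 0.0301), a call lost without Enpa-I/R replicate 1 (0.72) or NS-Sham replicate 1 or 2 (adjusted p up to 0.112), and did not pass between the I/R groups (-0.70 ± 0.33, edgeR adjusted p = 0.147).

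The T-type genes were far fewer in counts. Cacna1g (Cav3.1) fell 2.44-fold after I/R with saline, from 19.3, 13.7 and 20.6 CPM to 6.62, 6.87 and 8.43 CPM (-1.29 ± 0.25, edgeR adjusted p = 0.00254). With enpatoran it was at 5.81, 10.8 and 10.3 CPM, 1.95-fold below sham (edgeR adjusted p = 0.0234, lost without either of NS-Sham replicates 1 and 3, or Enpa-I/R replicate 1, up to 0.0901). Both I/R groups lay below every sham library. Cacna1h (Cav3.2) and Cacna1d (Cav1.3, the L-type channel of atrial and pacemaker cells) passed in no comparison in these nuclei. Cacna1h ranged from 2.31 to 7.74 CPM over the 9 libraries. Cacna1d had 28.4, 22.0 and 22.1 CPM in sham, 12.5, 20.6 and 21.2 CPM in NS-I/R and 25.7, 40.9 and 13.2 CPM in Enpa-I/R. Of its cardiomyocyte UMIs, 359 of 791, 218 of 578 and 450 of 855 in the 3 groups came from 1 cluster of 244 nuclei with the atrial markers Myl7, Myl4 and Sln, where its pooled level was 765, 470.3 and 587 CPM, and 95 of those nuclei were in Enpa-I/R replicate 1. Kcnj3 and Kcnj5 were also high there, with 3274 and 155 CPM in sham, and fits without that cluster left all calls on the cardiomyocyte members in place.

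Of the 6 calcium release and junction genes, 1 rose (Casq2) and 2 fell (Itpr1 and Itpr2) after I/R with saline. Ryr2, the ryanodine receptor, had 12875, 16609 and 14153 CPM in sham, 17591, 17351 and 18279 CPM in NS-I/R and 20363, 21729 and 18341 CPM in Enpa-I/R. The libraries were ordered by group without overlap, yet no comparison passed (0.28 ± 0.17, 0.22 ± 0.17 and 0.50 ± 0.17, edgeR adjusted p = 0.19, 0.357 and 0.0615). Casq2, the calcium-binding protein of the reticulum, rose by 0.40 ± 0.14 on the log2 scale after I/R with saline, from 273, 297 and 330.3 to 419, 392 and 380.0 CPM (edgeR adjusted p = 0.0428), and was at 322, 433 and 302 CPM with enpatoran. That call was lost when any 1 sham library, either of NS-I/R replicates 1 and 2, or Enpa-I/R replicate 1 was left out, and without the low-count filter or with other limits on nuclei (adjusted p up to 0.157).

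Triadin (Trdn), which anchors calsequestrin to the ryanodine receptor, and junctophilin-2 (Jph2), which holds the reticulum to the tubules, did not pass. Trdn ranged from 1403 to 2306 CPM over the 9 libraries, and Jph2 from 459 to 1470 CPM, its highest value being in Enpa-I/R replicate 3. The receptors for inositol trisphosphate were lower after I/R with saline. Itpr2 had 165, 164 and 155 CPM in sham, 77.8, 64.7 and 108 CPM in NS-I/R and 102, 120.0 and 115 CPM in Enpa-I/R. It fell 1.94-fold (-0.96 ± 0.17, edgeR adjusted p = 0.00139), with no overlap between sham and either I/R group. Itpr1 had 439, 513 and 519.5 CPM, 355, 371 and 344 CPM and 287, 376 and 333 CPM in the 3 groups. Itpr1 was below sham with saline (-0.47 ± 0.13) and with enpatoran (-0.53 ± 0.13), at edgeR adjusted p = 0.0157 and 0.0194. Both calls were lost without NS-Sham replicate 2 or 3 and at a mitochondrial limit of 20%. The enpatoran call was also lost without Enpa-I/R replicate 1 or 3 (adjusted p up to 0.109 with saline and 0.0881 with enpatoran).

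Of the genes that clear calcium, Pln fell, Slc8a1 rose and Atp2a2 passed in no comparison. Pln encodes phospholamban, the inhibitor of the reticulum pump. It had 1776, 1714 and 1824 CPM in sham, 447, 594 and 1108 CPM in NS-I/R and 1368, 1490 and 1328 CPM in Enpa-I/R. The 3 groups did not overlap, and NS-I/R replicate 3 was the highest of its group. Pln fell 2.49-fold after I/R with saline (-1.32 ± 0.26, edgeR adjusted p = 0.00265) and was 2.01-fold higher with enpatoran than with saline (1.01 ± 0.26, edgeR adjusted p = 0.0286), the latter lost without any 1 I/R library other than NS-I/R replicate 3 (adjusted p up to 0.106). Pln lies within Cep85l, which was at 81.1 to 82.1 CPM in sham, 65.3 to 106 CPM in NS-I/R and 65.1 to 70.5 CPM in Enpa-I/R.

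Slc8a1, the sodium-calcium exchanger NCX1, had 7252, 6444 and 9283 CPM in sham, 10278, 11482 and 11149 CPM in NS-I/R and 13039, 15092 and 12824 CPM in Enpa-I/R. The groups did not overlap and Enpa-I/R was highest. It rose by 0.51 ± 0.17 with saline (edgeR adjusted p = 0.0296, lost without NS-Sham replicate 1 or 2 or NS-I/R replicate 2, up to 0.0977) and was 1.82-fold above sham with enpatoran (0.87 ± 0.17, edgeR adjusted p = 0.00694). Atp2a2, the reticulum pump SERCA2, had 3819, 3263 and 3168 CPM in sham, 3676, 3695 and 2955 CPM in NS-I/R and 3929, 3582 and 4019 CPM in Enpa-I/R. All groups overlapped, and the log2 fold changes were 0.01 ± 0.15, 0.20 ± 0.15 and 0.21 ± 0.15 (edgeR adjusted p = 0.962, 0.375 and 0.39).

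Camk2d, the main calcium-calmodulin kinase of the heart, which phosphorylates the ryanodine receptor and phospholamban, had 1170, 1144 and 1205 CPM in sham, 1615, 1502 and 1395 CPM in NS-I/R and 1215, 1239 and 1235 CPM in Enpa-I/R. NS-I/R was above both other groups without overlap. It rose by 0.36 ± 0.12 with saline (edgeR adjusted p = 0.0335), a call lost without any 1 sham library, either of NS-I/R replicates 1 and 2, or Enpa-I/R replicate 1, and without the low-count filter (adjusted p up to 0.19). Gja1, the gap junction protein connexin 43, had 341, 364 and 463 CPM, 196, 309 and 409 CPM and 420.2, 533 and 459 CPM. The I/R groups did not overlap, and no comparison passed (-0.36 ± 0.23, 0.67 ± 0.23 and 0.30 ± 0.23, edgeR adjusted p = 0.209, 0.0616 and 0.386). Without NS-I/R replicate 3, Gja1 was lower after I/R with saline (-0.63, adjusted p = 0.0151).

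NS-I/R replicate 3 was the highest of the 3 NS-I/R libraries for 14 of the 16 members that fell. It exceeded both others by at least 1.5 times for 7 of them, Kcnj2, Kcnj5, Kcnj11, Kcnip2, Kcnk3, Cacna1c and Pln. Without this library the log2 fold changes of Kcnip2 were -3.79 in NS-I/R against sham and 1.98 in Enpa-I/R against NS-I/R. Those of Pln were -1.77 and 1.46. Without it, 18 members were lower and 4 higher in NS-I/R than in sham, where 28% of all genes were lower and 28.8% higher (56.8% in all). Also without it, Kcnj2, Kcnj5, Kcnk3, Gja1 and Itpr2 joined the members higher with enpatoran than with saline, and Scn4b, Kcnh2 and Camk2d were lower (adjusted p at most 0.0322). Against sham, Kcnq1, Ryr2 and Jph2 joined the members higher with enpatoran, and Kcnj5, Kcnd3, Cacna2d1, Trdn and Itpr2 the lower ones (adjusted p at most 0.0331). In that comparison 14.9% of all genes were higher and 14.7% lower without this library. Over the 33 members, whose genes span 3.26 to 609 kb, the rank correlation between span and log2 fold change was 0.13, 0.06 and 0.12 in the 3 comparisons, given as a description.

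A wider list of 90 genes of ion transport and calcium handling, 75 of them tested, gave 30 lower and 13 higher in NS-I/R than in sham, with a median log2 fold change of -0.39. Of all genes, 21.6% were lower and 23.7% higher. Potassium channel genes outside the members gave 6 lower and 0 higher of 11 tested, among them Abcc9, the sulfonylurea receptor that pairs with Kir6.2 (from 306 ± 2.34 to 78.0 ± 26.0 CPM, mean ± SD of 3 libraries, -1.98 ± 0.22). Mitochondrial calcium genes gave 4 lower and 0 higher of 5, and genes of store-operated entry and TRP channels 3 lower and 0 higher of 6, led by Trpm4 (-2.19 ± 0.19). The reticulum genes went both ways, 4 higher and 4 lower of 14: Tmem38b, a counter-ion channel of the reticulum, and Sri, which binds the ryanodine receptor, rose (2.52 ± 0.40 and 2.35 ± 0.23), and Hrc, a histidine-rich calcium-binding protein, fell (-2.35 ± 0.21). Among the regulators, 5 of 16 rose and 7 fell. The calmodulin gene Calm2 rose (2.13 ± 0.26), as did Cav3 of the tubule and caveolar membrane (1.80 ± 0.22), and Camk2a fell (-1.83 ± 0.18). The edgeR adjusted p of these genes was at most 0.000753. Without NS-I/R replicate 2 the list gave 8 higher in place of 13, and 2529 of all 14283 genes tested were higher, in place of 3305 of 13955. Abcc9 is also a pericyte marker, and pericyte markers in these nuclei were lower in NS-I/R than in sham, as given above.

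With enpatoran against saline, 19 of the 75 were higher and 8 lower, beside 7.64% and 11.4% of all genes, with a median of 0.24. The higher ones named by size were S100a1, an activator of the reticulum pump and ryanodine receptor (0.95 ± 0.29), Abcc9 (0.93 ± 0.22), Camk2a (0.82 ± 0.18), Cmya5 (0.78 ± 0.19) and Gpd1l, a regulator of the sodium channel (0.77 ± 0.15). The lower ones were Tmem38b (-1.39 ± 0.38), Cav3 (-1.18 ± 0.22), the membrane anchor Ank3 (-1.10 ± 0.29), Calm2 (-1.01 ± 0.25) and Sri (-0.94 ± 0.22). Their edgeR adjusted p was 0.012 to 0.0438. The higher and lower counts were 2 and 0 and 3 and 1 without NS-I/R replicates 1 and 2, 30 and 17 without NS-I/R replicate 3, 2 and 1, 3 and 2 and 0 and 0 without Enpa-I/R replicates 1, 2 and 3, and 12 and 8, 15 and 8 and 12 and 5 without each sham library. How many of all genes were higher in these fits is given with the members above.

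Enpa-I/R against sham gave 13 lower and 5 higher of the 75, beside 9.1% and 9.16% of all genes (18.3% in either direction), with a median of -0.12. Trpm4 (-1.96 ± 0.19), Hrc (-1.64 ± 0.20), the anchor Ank2 (-1.11 ± 0.15) and Abcc9 (-1.05 ± 0.22) were among the lowest. Sri (1.41 ± 0.23), Calm2 (1.13 ± 0.25) and Atp1b1, the sodium pump beta subunit (0.74 ± 0.15), were among the higher ones. The edgeR adjusted p of these genes was at most 0.0123. The counts lower and higher were 9 and 3 without NS-Sham replicate 1, 8 and 5 without Enpa-I/R replicate 1, and 23 and 10 without NS-I/R replicate 3. Of all genes, 1692 of 14500 were called in the first of these fits, 1476 of 14483 in the second and 29.7% in the third.

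The cardiomyocyte-like nuclei fell into 5 clusters, made without the members and the wider list among the variable genes, and a different cluster held the largest share of nuclei in each group. Cluster 3, led by Hs3st5, Myh7b and the member Kcnn2, held 69.7% of sham nuclei, 4.77% of NS-I/R nuclei and 26.8% of Enpa-I/R nuclei. Cluster 2, with Xirp2, Flnc and Ankrd1 among its leading genes, held 0.121%, 49.1% and 19.4% in the same order. Cluster 1 held 6.47%, 37.2% and 36.9%. The others were cluster 0, of shallow nuclei (median 2066.5 UMIs), and the atrial cluster.

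Within libraries most members were lower in cluster 2 than in cluster 1. In all 6 I/R libraries, 20 of the 34 members were higher in cluster 1 than in cluster 2, and 3 were lower, Cacna2d1, Camk2d and Rrad. The median log2 ratio of cluster 1 over cluster 2 was 2.16 for Kcnip2, 1.96 for Cacna1g, 1.68 for Kcnj3, 1.63 for Pln, 1.48 for Kcnn2 and 0.81 for Kcnd2. It was -0.78 for Rrad and -0.71 for Camk2d. In the 5 I/R libraries with at least 25 nuclei in both, 12 members were higher in cluster 3 than in cluster 1 in each library and 3 were lower, Kcnq1, Gja1 and Rrad, with a median log2 ratio of 1.12 for Kcnip2 and 0.98 for Kcnj3. These are values of clusters and carry no test. How many of all genes had the same order was not counted, so the counts cannot be called particular to the members.

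Levels also differed between groups inside a cluster. In cluster 3, Kcnip2 was at 165 ± 2.85 CPM in sham, 47.8 ± 3.20 CPM in the 2 NS-I/R libraries with enough nuclei and 81.3 ± 7.09 CPM in Enpa-I/R. In cluster 1 it was at 106 ± 25.8, 23.3 ± 5.74 and 35.0 ± 5.27 CPM (n = 3 each). In cluster 2 it was at 3.86 ± 0.614 CPM in NS-I/R and 7.18 ± 2.82 CPM in Enpa-I/R. Kcnip2 was thus below its sham level in the I/R libraries of clusters 1 and 3. Pln did not share this pattern in its values: in cluster 1 it was at 1478 ± 241, 1195 ± 355 and 1448 ± 98.5 CPM, and in cluster 2 at 274.6 ± 119 and 613 ± 22.9 CPM. Atp2a2 was at 2432 ± 368, 4461 ± 704 and 3750 ± 331 CPM in cluster 1 and at 2494 ± 608 and 2321 ± 437 CPM in cluster 2.

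**Figure D3:**
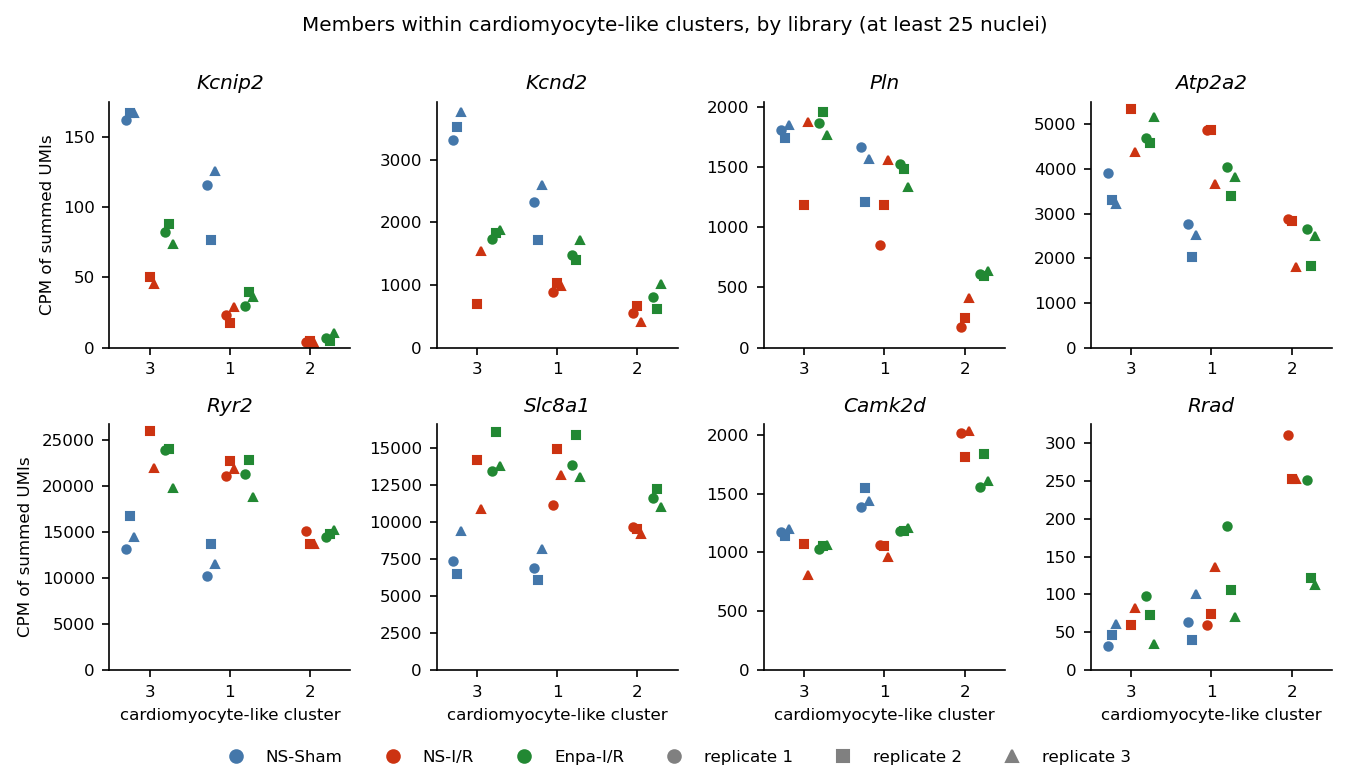
CPM (y axes, linear, from 0) of 8 members in cardiomyocyte-like clusters 3, 1 and 2 (x axis), 1 point per library with at least 25 nuclei in the cluster, coloured by group. Kcnip2 and Pln are lowest in cluster 2 and Camk2d and Rrad highest there, and in cluster 1 the I/R points of Kcnip2 and Kcnd2 lie below the sham points while those of Ryr2, Slc8a1 and Atp2a2 lie above them.

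A fit within cluster 1 alone, added after the data were seen, tested 32 members among 11672 genes, with 56 to 79 nuclei per sham library. The sham nuclei of this cluster were also shallower, with median depths of 4287 to 6799.5 UMIs per library. In NS-I/R the medians were 7841 to 9885.5 UMIs and in Enpa-I/R 7312.5 to 13157 UMIs, both without overlap with sham. The part of depth in the values below was not tested. In NS-I/R against sham, 5 members were lower and 4 higher, beside 6.09% and 6.84% of all genes there. The lower ones were Kcnip2 (-2.05), Kcnn2 (-1.53), Cacna1g (-1.40), Kcnd2 (-1.05) and Itpr2 (-0.99), with edgeR adjusted p of 0.000378, 0.00041, 0.0137, 0.00367 and 0.0144. The higher ones were Slc8a1 (1.04), Ryr2 (1.02), Atp2a2 (1.02) and Casq2 (0.85), with edgeR adjusted p of 0.00462, 0.00494, 0.0058 and 0.026. Ryr2 and Atp2a2 did not pass over all cardiomyocyte-like nuclei. Kcnj3 and Pln, which fell over all nuclei, gave -0.16 and -0.17 within cluster 1 and did not pass (edgeR adjusted p = 0.624 and 0.614), and Camk2d, which rose over all nuclei, gave -0.37 (edgeR adjusted p = 0.135).

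Between the I/R groups within cluster 1, edgeR called 0 members higher with enpatoran and 1, Kcnh2, lower (-1.45, edgeR adjusted p = 0.0417), beside 0.805% and 1.52% of all genes. At an unadjusted p under 0.05 it gave 7 higher and 4 lower, and DESeq2's Wald test called 4 higher and 3 lower after adjustment. The shares of all genes beside these unadjusted and DESeq2 counts were not taken. Kcnip2 gave 0.56, Kcnd2 0.65, Kcnn2 0.66, Kcnj3 -0.05 and Pln 0.26 (edgeR adjusted p = 0.172, 0.077, 0.0686, 0.917 and 0.475). None of the 10 members higher with enpatoran over all nuclei passed in the edgeR fit inside this cluster. Against sham, enpatoran gave 3 lower, Kcnip2 (-1.49), Cacna1g (-1.74) and Kcnn2 (-0.87), and 2 higher, Slc8a1 (1.14) and Ryr2 (0.93), beside 1.7% and 1.47% of all genes (3.17% in either direction). How the shares of the clusters and the levels within them add up in the sums over all nuclei was not tested.

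Other cell classes carried some of the channels themselves. A channel was taken as a class's own where it averaged at least 10 CPM and its UMIs per cardiomyocyte-marker UMI were at least 5 times those of cardiomyocyte-like nuclei. The make-up of free RNA in these libraries was not measured. Cacna1d met this in several classes. In macrophage-like nuclei it had 196, 174 and 246 CPM in sham, 1851, 2376 and 3017 CPM in NS-I/R and 1729, 1966 and 1358 CPM in Enpa-I/R. Every I/R library was several times above every sham library, and the I/R groups overlapped. The log2 fold changes from sham were 3.52 ± 0.21 with saline and 3.00 ± 0.20 with enpatoran (edgeR adjusted p = 2.07e-08 and 2.73e-07, beside 34.7% and 17.3% of all genes of the class called). Between the I/R groups, where 6.43% of genes were called, it was -0.52 ± 0.18 (edgeR adjusted p = 0.101).

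Both macrophage clusters carried Cacna1d after I/R, and a comparison with sham was open only in cluster 11. In cluster 11, led by Mrc1 and Cd163, Cacna1d was at 210 ± 45.9, 1618 ± 565 and 1142 ± 225 CPM in the 3 groups (SD, n = 3). In cluster 17, led by Arg1, Fn1 and Spp1 and with Cacna1d itself among its 10 leading genes, it was at 3175 ± 479 CPM in NS-I/R and 2526 ± 418 CPM in Enpa-I/R. The sham libraries held 18, 23 and 10 nuclei of cluster 17, under the limit of 25, so no sham level is given there. Cluster 17 held 6.17% of macrophage-like nuclei in sham, 50.7% of them in NS-I/R and 37.5% of them in Enpa-I/R.

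Smaller levels of Cacna1d in other classes moved the same way in NS-I/R. In endothelial-like nuclei it had 7.38, 7.53 and 3.69 CPM in sham, 36.9, 22.4 and 33.5 CPM in NS-I/R and 13.8, 19.1 and 11.6 CPM in Enpa-I/R. Its sham mean there, 6.20 CPM, was under the limit of 10 CPM, which was met only through the I/R groups. The endothelial-like rise of Cacna1d over sham is therefore not independent of the rule that chose it. In pericyte-like nuclei it had 59.4, 77.0 and 55.8, 219, 235 and 96.3 and 77.8, 64.8 and 57.1 CPM, and in the fibroblast cluster 10 it had 53.0, 32.6 and 46.2, 122, 118 and 105 and 65.9, 54.1 and 37.6 CPM. In all 3, NS-I/R lay above both other groups without overlap, and in endothelial-like nuclei Enpa-I/R also lay above sham. Against sham the NS-I/R values were 2.15 ± 0.30, 1.31 ± 0.26 and 1.35 ± 0.23 (edgeR adjusted p = 0.000151, 0.00166 and 0.00196), and enpatoran against saline gave -0.99 ± 0.27, -1.35 ± 0.26 and -1.10 ± 0.22 (edgeR adjusted p = 0.0393, 0.0109 and 0.0347). The calls between the I/R groups were lost without NS-I/R replicate 1 or Enpa-I/R replicate 3 in all 3 classes, without Enpa-I/R replicate 1 or 2 in endothelial-like nuclei and cluster 10, and, for pericyte-like nuclei and cluster 10, without NS-I/R replicate 2. Enpa-I/R against sham gave 1.15 ± 0.32, -0.04 ± 0.28 and 0.25 ± 0.25 (edgeR adjusted p = 0.031, 0.969 and 0.754). The endothelial call was lost without any 1 sham library or Enpa-I/R replicate 1 or 2, and 11.5% of all genes were called there. Of all genes, 35.4%, 24.3% and 9.92% were called in the first comparison in these classes and 8.82%, 6.06% and 0.552% in the second.

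Beside these values, the 9 macrophage markers in endothelial-like nuclei summed to 327, 496 and 395 CPM in the 3 groups, in pericyte-like nuclei to 278, 352 and 327 CPM and in cluster 10 to 369, 328 and 327 CPM. Cacna1d UMIs per macrophage-marker UMI were 0.0119, 0.199 and 0.119 in macrophage-like nuclei and 0.0202, 0.063 and 0.0372 in endothelial-like nuclei. In pericyte-like nuclei they were 0.245, 0.512 and 0.205 and in cluster 10 0.113, 0.349 and 0.164. In cardiomyocyte-like nuclei the ratio was 0.184, 0.147 and 0.213. In the pericyte-like and cluster 10 nuclei the ratio exceeded that of macrophage-like nuclei in every group. The part of macrophage RNA in the endothelial-like, pericyte-like and cluster 10 values was not tested. Smooth muscle-like nuclei and the fibroblast cluster 9 also carried Cacna1d, and there no comparison passed, with log2 fold changes of -0.29 ± 0.26 and 0.32 ± 0.17 in NS-I/R against sham (edgeR adjusted p = 0.566 and 0.224).

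**Figure D4:**
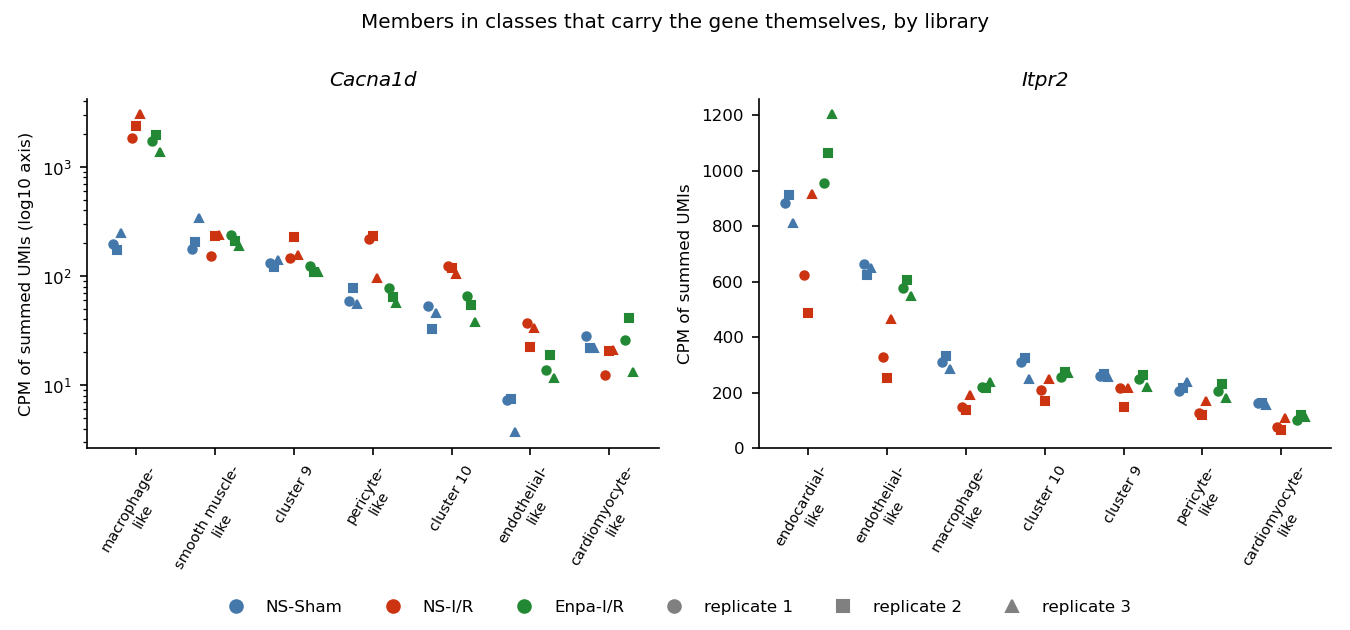
CPM of Cacna1d (left, log10 axis) and Itpr2 (right, linear axis from 0) in each library, for classes that carry the gene themselves and for cardiomyocyte-like nuclei, coloured by group. For Cacna1d the macrophage-like I/R points stand near 1358 to 3017 CPM above sham points of 174 to 246, and for Itpr2 the NS-I/R points of endothelial-like, macrophage-like and pericyte-like nuclei lie below the sham points.

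The inositol trisphosphate receptors were carried by most classes and fell in several of them as in cardiomyocytes. Itpr2 was at 647 ± 19.8, 349 ± 108 and 578 ± 29.0 CPM in endothelial-like nuclei (mean ± SD, n = 3 each). There it fell with saline (-1.0 ± 0.17 on the log2 scale, edgeR adjusted p = 0.000698) and was higher with enpatoran than with saline (0.80 ± 0.17, edgeR adjusted p = 0.0167), and the endothelial-like class includes a cluster of 419 nuclei led by the heat-shock genes Hspa1a and Hspa1b. In pericyte-like nuclei Itpr2 gave -0.81 ± 0.16 and 0.65 ± 0.16 for the same comparisons (edgeR adjusted p = 0.00166 and 0.029). It also fell with saline in macrophage-like nuclei (-1.01 ± 0.16), cluster 9 (-0.50 ± 0.16) and cluster 10 (-0.57 ± 0.16), at edgeR adjusted p of 0.000159, 0.0438 and 0.0359. The endothelial and pericyte differences between the I/R groups were lost without NS-I/R replicate 1 or any 1 Enpa-I/R library, the pericyte one also without NS-I/R replicate 2, and the cluster 9 and 10 falls without NS-Sham replicate 1 or 2 or NS-I/R replicate 1 or 2, among others.

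Itpr1 fell with saline in cluster 9 (-0.82 ± 0.14), lymphatic endothelial-like (-0.84 ± 0.20), macrophage-like (-0.69 ± 0.23), pericyte-like (-0.63 ± 0.17) and endothelial-like nuclei (-0.51 ± 0.15), at edgeR adjusted p of 0.00083, 0.00864, 0.0295, 0.0128 and 0.0165. The macrophage, pericyte and endothelial falls were lost without NS-I/R replicate 1 or 2, the macrophage one also without NS-Sham replicate 1 or 3. In lymphatic endothelial-like nuclei 14.9% of all genes were called, and in cluster 9 13%.

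Pericytes and smooth muscle carried T-type channels. In pericyte-like nuclei Cacna1h had 27.3, 22.2 and 27.0 CPM in sham, 4.84, 10.8 and 9.63 CPM in NS-I/R and 12.1, 12.4 and 17.6 CPM in Enpa-I/R, 3 levels without overlap, and fell with saline (-1.70 ± 0.36, edgeR adjusted p = 0.00267). Casq2 in the same nuclei fell with saline, from 229, 224 and 216 to 54.4, 87.9 and 141 CPM (-1.38 ± 0.24, edgeR adjusted p = 0.00053), opposite in sign to its change in cardiomyocyte-like nuclei. Its ratio to cardiomyocyte-marker UMIs there was 5.47 times that in cardiomyocyte-like nuclei, just above the limit of 5. In smooth muscle-like nuclei Cacna1g fell with saline, from 55.3, 48.8 and 39.5 to 17.8, 17.5 and 16.5 CPM (-1.54 ± 0.42, edgeR adjusted p = 0.0434, where 5.95% of all genes were called), a call lost without any 1 sham library, either of NS-I/R replicates 1 and 2, or Enpa-I/R replicate 2.

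Kcna5, nearly absent from cardiomyocyte-like nuclei, was an endothelial-like gene here, with 590 UMIs in 11744 nuclei. It had 37.4, 28.2 and 24.8 CPM in sham, 20.4, 12.6 and 23.8 CPM in NS-I/R and 23.8, 23.6 and 31.0 CPM in Enpa-I/R. The NS-I/R libraries lay below all sham libraries (-0.78 ± 0.24, edgeR adjusted p = 0.0241), and enpatoran did not differ from either by the test (edgeR adjusted p = 0.173 and 0.593). Kcnd3, which did not pass in cardiomyocyte-like nuclei, rose with saline in endocardial-like nuclei from 161, 146 and 98.9 to 422, 293 and 209 CPM (1.08 ± 0.25, edgeR adjusted p = 0.00989, where 10.5% of all genes were called). The Kcna5 call was lost without NS-Sham replicate 1 or NS-I/R replicate 2, and the Kcnd3 call without NS-Sham replicate 3 or NS-I/R replicate 1. Camk2d was higher with enpatoran than with saline in pericyte-like nuclei (0.54 ± 0.14, edgeR adjusted p = 0.0318), a call lost without any 1 I/R library other than NS-I/R replicate 3. Across these 8 classes 39 pairs of a member and a class were tested. Of these pairs, 19 were called in NS-I/R against sham, 6 between the I/R groups and 5 in Enpa-I/R against sham. All 3 counts include Cacna1d in endothelial-like nuclei, which met the limit of 10 CPM only through the I/R groups. Beside Cacna1d in macrophage-like and endothelial-like nuclei, those called in Enpa-I/R against sham were Itpr2 in macrophage-like nuclei (-0.53 ± 0.15), Casq2 in pericyte-like nuclei (-0.93 ± 0.23) and Itpr1 in cluster 9 (-0.52 ± 0.13), at edgeR adjusted p of 0.0291, 0.0271 and 0.0302. Each of these 3 calls was lost without NS-Sham replicate 1 or 2 or Enpa-I/R replicate 1, among others, and 5.27% of pericyte-like genes were called in that comparison. Between the I/R groups 0.482% of endocardial-like and 0.0143% of smooth muscle-like genes were called, and in Enpa-I/R against sham 4.87% of genes in cluster 9 and 1.27% in cluster 10.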

How the data were processed

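Single-nucleus RNA-seq (10x 3′ chemistry, dual index) was made from nuclei of flash-frozen powdered hearts, freed by detergent and mechanical lysis and separated on an iodixanol barrier, per the labels' protocols. The deposited values are whole UMI counts per gene and nucleus, not normalized. The file headers name Cell Ranger 8.0.0, whereas the submitters' processing notes name Cell Ranger 6.1.1, Seurat, and the builds GRCm39 and GRCh38 without a role. Whether counting used strand or introns is not given in the sources used here. Genome builds differ between those notes and the RefSeq tables used for promoters, so promoter coordinates are GRCm38.p6 only.

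Nuclei with at least 500 genes and at most 5% mitochondrial UMIs were kept (56766 barcodes, 41979 kept), and the top Scrublet scores were removed as doublets at 0.8% per 1000 barcodes. Clusters (scanpy 1.11.5, 2000 variable genes, 30 components, 15 neighbours, Leiden resolution 1) were made without the members, the wider list, mitochondrial and sex-linked genes among the variable genes. A cluster was named "-like" where at least 3 markers of a class were in at least 5% of its nuclei and 2-fold over the median of clusters, with 10 CPM added. Fibroblast clusters were compared by number, since 1 of them did not pass the check against markers of other classes.

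UMIs were summed per library and class. Each class with at least 25 nuclei per library was fitted with edgeR 4.0.16 (R 4.3.3; filterByExpr, TMM, glmQLFit and glmQLFTest) over all 9 libraries, with Benjamini-Hochberg adjustment over all genes at 0.05. Standard errors are the log2 fold change over the root of F. CPM shown are plain, without TMM scaling, and ± is the SD unless said. On simulated counts, 71% of 200 genes changed by 1 on the log2 scale were recovered for NS-I/R against sham with 6 false calls among 13955 genes. The changed genes were drawn above a low CPM limit, with as many raised as lowered. In the data 45.3% of genes were called in that comparison, so these rates may not hold there or for members at low counts. Alternatives were another normalization and DESeq2 1.42.0, no filter, the replicate number as a block, the 6 libraries of a contrast, each library left out, and other nucleus filters and clusterings. The members, the wider list and the markers were chosen with earlier results of these data known. All members are named. The wider list's genes are named by the 5 largest changes in each direction among called genes averaging 10 CPM or more, some of which are not reported here, and channels of other classes by the ratio rule given in the text.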

Additional observations from a re-analysis of the deposited data

Results flagged for a closer look

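In 6 cases a member passed the test in a class and went the opposite way in cardiomyocyte-like nuclei under the same contrast. The groups did not overlap in either. Opposite signs where the class did not pass were left out, such as Itpr1 and Itpr2 in endocardial-like nuclei in Enpa-I/R against sham. The difference between the classes was not tested in any of the 6 cases. For Cacna1d in NS-I/R against sham, the log2 fold change was 3.52 in macrophage-like, 2.15 in endothelial-like and 1.31 in pericyte-like nuclei and 1.35 in fibroblast cluster 10, and -0.42 in cardiomyocyte-like nuclei (edgeR adjusted p = 0.315 in the last). The sign of the cardiomyocyte value was not stable: it was 0.40 with doublets kept and 0.97 within cluster 1. For Casq2 in NS-I/R against sham it was -1.38 in pericyte-like and 0.40 in cardiomyocyte-like nuclei (edgeR adjusted p = 0.0428 in the latter). For Camk2d in Enpa-I/R against NS-I/R it was 0.54 in pericyte-like and -0.25 in cardiomyocyte-like nuclei (edgeR adjusted p = 0.154 in the latter), where it was 0.19 within cluster 1.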

How the results depend on the processing

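Over 19 planned settings, 11 of the 20 members called in NS-I/R against sham, 2 of the 10 in Enpa-I/R against NS-I/R (Kcnd2 and Kcnip2) and 6 of the 13 in Enpa-I/R against sham passed in every setting. Same-numbered replicates did not deviate together (correlations of -0.103 to 0.0726 over 9 pairs, and -0.0929 to 0.134 over 18 pairs of different numbers), so the numbers are not treated as pairs. With the replicate block, 2 members were higher in NS-I/R than in sham, 1 was higher in Enpa-I/R than in sham, and 5 genes of the wider list were lower in Enpa-I/R than in NS-I/R. With that block the NS-I/R against sham calls of Kcnj2, Cacna1c, Casq2 and Camk2d (adjusted p = 0.0589, 0.0702, 0.0635 and 0.0619) and the Enpa-I/R against sham call of Rrad (0.0696) were lost, and Scn4b passed in NS-I/R against sham (0.0398) and Gja1 between the I/R groups (0.0326). At a mitochondrial limit of 20%, the NS-I/R against sham calls of Cacna1c, Casq2 and Itpr1 were lost. So were those of Cacna1c, Fgf13 and Kcnj11 between the I/R groups and of Itpr1 and Rrad in Enpa-I/R against sham. Counts rest on 3 libraries a group, and of the tested members Scn4b, Hcn2, Hcn4 and Cacna1h averaged under 10 CPM in every group. Each cause was not tested.

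For NS-I/R against sham, leaving out 1 library gave 1 to 4 members higher and 10 to 18 lower, 8 to 16 genes of the wider list higher, and -0.056 to 0.11 for Atp2a2. Without the low-count filter and with the 6 libraries alone, 2 members were higher. Atp2a2 was -0.019 without the filter, -0.029 at a mitochondrial limit of 20%, -0.0037 with at least 1000 genes per nucleus and -0.0017 without the shallow cluster. Cacna1d was 0.40 with doublets kept and Cacna1h 0.10 without the atrial cluster. Within cluster 1, an alternative chosen after seeing the data, as was leaving out the shallow cluster, 5 members and 11 genes of the wider list were lower, and the log2 fold change changed sign for Scn4b (0.71), Kcnq1 (0.045), Kcnh2 (0.86), Kcnj2 (0.75), Kcnd3 (0.13), Cacna1c (0.13), Cacna1d (0.97), Trdn (0.43), Camk2d (-0.37) and Gja1 (0.057).

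For Enpa-I/R against NS-I/R, leaving out 1 library gave 2 to 15 members higher and 0 to 3 lower, 0 to 30 genes of the wider list higher and 0 to 17 lower, and values of -0.25 to 0.011 for Kcnd3, -0.055 to 0.52 for Hcn2, -0.12 to 0.011 for Cacna2d1 and -0.13 to 0.032 for Itpr1. Without the filter, and without the atrial cluster, 1 member was lower. The 6 libraries alone gave 4 members higher and 3 genes of the wider list higher and 1 lower. At a mitochondrial limit of 20%, 10 genes of that list were higher. Cacna1d was -0.068 with doublets kept. Within cluster 1, 0 members were higher and 1 lower, 0 genes of the wider list were higher and 2 lower, and the sign changed for Kcnj3 (-0.045), Hcn2 (-0.35), Cacna1g (-0.34), Cacna1h (-0.77), Ryr2 (-0.088), Atp2a2 (-0.28), Camk2d (0.19), Rrad (0.44) and Itpr1 (0.10).

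For Enpa-I/R against sham, leaving out 1 library gave 1 to 5 members higher and 5 to 16 lower, 3 to 10 genes of the wider list higher and 8 to 23 lower, -0.25 to 0.46 for Cacna1d and -0.29 to 0.26 for Cacna1h. Members higher numbered 4 with DESeq2's Wald test, 5 with the 6 libraries alone and 1 at a mitochondrial limit of 20%, and the 6 libraries gave 9 genes of the wider list higher and 20 lower. Within cluster 1, 3 members were lower, 3 genes of the wider list were higher and 5 lower, and the sign changed for Fgf13 (0.092), Kcnj2 (0.78), Kcnk3 (0.16), Cacna1h (-1.13), Pln (0.086) and Camk2d (-0.18).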

Other observations

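The 34 members together made up 5.77 to 6.45% of cardiomyocyte-like UMIs in sham, 5.06 to 5.79% in NS-I/R and 6.71 to 7.29% in Enpa-I/R. Ryr2, Cacna1c and Slc8a1 alone were 3.22 to 3.69%, 3.52 to 4.07% and 4.48 to 5.18% of the UMIs in the same order, and the other 31 members 2.55 to 2.75%, 1.54 to 1.72% and 2.01 to 2.23%.

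Some members were also found in classes with too few nuclei for a test. Kcnd2 gave 1987 UMIs in 180 epicardial-like nuclei, at a mean of 2022 CPM over the libraries and with a ratio to cardiomyocyte-marker UMIs 5.69 times that in cardiomyocyte-like nuclei. Kcnk3 gave 21 UMIs in 52 adipocyte-like nuclei, at a ratio 17.7 times as high. Cacna1d gave 156 UMIs in 92 T or NK-like nuclei and 396 UMIs in 1327 neutrophil-like nuclei of NS-I/R, against 4 in 48 and 16 in 323 in Enpa-I/R, and the macrophage markers in the T or NK-like nuclei of NS-I/R summed to 2525 CPM, against 182 in sham.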
